A study of Mus musculus with 8 samples.

Results

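Cytosolic ribosomal protein (RP) genes were taken as the protein-coding genes whose symbol is *Rpl* or *Rps*, a number and at most 1 letter of a fixed set and further digits, in the GENCODE annotation of mm10, without pseudogenes and without the kinases named *Rps6k*. The rule found 79 of 21951 protein-coding genes, 48 *Rpl* and 31 *Rps*, and it used no measured value. It included 6 paralogs of minor or tissue-restricted use (*Rpl3l*, *Rpl10l*, *Rpl39l*, *Rpl22l1*, *Rpl7l1* and *Rps27l*). It left out other genes for cytosolic ribosomal proteins, such as *Rplp0*, *Rplp1*, *Rplp2*, *Rpsa*, *Fau* and *Rpl36al*.

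The cytosolic ribosome is built from a large and a small subunit, each an rRNA scaffold with a set of ribosomal proteins. Genes named *Rpl* encode proteins of the large subunit and genes named *Rps* encode those of the small subunit. RP genes are active in nearly all cells, most lack a TATA box, and their transcripts typically begin with a C followed by a run of pyrimidines (the 5′ terminal oligopyrimidine, or 5′ TOP, tract) through which mTOR and LARP1 control translation. PBRM1 (BAF180) is the bromodomain subunit that defines the PBAF form of the SWI/SNF chromatin remodeler, and BRG1, encoded by *Smarca4*, is an ATPase shared by several SWI/SNF forms.

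Binding was read from ChIC-Seq peak lists of primary mouse uterine stromal cells (mUSCs). In this assay an antibody carries a protein A/G-MNase fusion (pAG-MNase) to fixed chromatin, and the DNA cut near the antigen is sequenced. Cells came from D4 uteri of WT mice aged 8 to 12 weeks, with horns of 5 to 10 mice digested together, and 50000 cells were used per library. The labels give day 4 of pregnancy, whereas the protocol in the labels calls the mice pseudopregnant. No mutant or treated cells were included, so that the comparison was between the antibodies, Pbrm1 and Brg1, with 3 replicates each, and 1 list from the pooled fragments of each antibody. The study calls its replicates biological, but neither it nor the labels say whether they came from separate pools of mice, and the p-values measure only the spread between these libraries. The 2 IgG libraries were not analysed here.

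Replicates held 8868777 to 16505239 fragments and 21912 to 40610 peaks, and the pooled lists held 38144108 (PBRM1) and 37842839 (BRG1) fragments. Among the PBRM1 libraries replicate 3 stood apart. It had the most fragments and the fewest peaks, and it gave the lowest fold enrichment of the 3 at 58 of 70 RP promoters, against 78.5% of all genes compared in the same way. Of marker promoters fixed for this tissue, all 8 of the stromal list (among them *Vim*, *Pdgfra*, *Col1a1* and *Hand2*) and all 7 of the epithelial list (among them *Epcam* and *Krt8*) carried a peak in both pooled lists, whereas none of the 3 immune markers (*Ptprc*, *Csf1r* and *Cd68*) did. Of 3 endothelial markers 2 had a PBRM1 and 3 a BRG1 peak. The pooled lists had a peak at 68.7% (PBRM1) and 72.1% (BRG1) of all protein-coding genes. All 3 PBRM1 replicates had a peak at 5 of the 8 stromal and 1 of the 7 epithelial markers (52.2% of all genes). All 3 BRG1 replicates had one at 7 and 4 of them (61.4% of all genes). A peak at a promoter is not expression, so these lists do not measure purity.

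A promoter peak was a peak with any base within 2000 bp of a TSS of the gene, and where a gene had several the one of highest fold enrichment was taken. Fold enrichment is the pileup of fragments over the local background of the same library. RP promoters were almost all occupied. PBRM1 peaks were present at 75, 75 and 72 of 79 RP promoters in replicates 1, 2 and 3, where 60.0%, 60.7% and 55.3% of all protein-coding genes had one. BRG1 peaks were present at 76 RP promoters in each replicate, beside 66.1%, 65.1% and 65.0% of all genes. All 3 PBRM1 replicates had a peak at 70 RP genes (88.6%, against 52.2% of all genes). All 3 BRG1 replicates had one at 76 (96.2%, against 61.4%). In all 6 replicates together 70 RP genes had a peak (88.6%, against 51.9%). In the pooled lists 76 RP genes were occupied by PBRM1 and by BRG1, where the share over all genes was 68.7% and 72.1%. Each of these 76 PBRM1 peaks shared at least 1 bp with a peak of the pooled BRG1 list, as did 97.6% of the promoter peaks of all genes.

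The 3 RP genes with no promoter peak in any of the 8 lists were *Rpl3l*, a paralog used in heart and skeletal muscle, and *Rpl10l* and *Rpl39l*, paralogs used in the male germ line. The other 3 paralogs, *Rpl22l1*, *Rpl7l1* and *Rps27l*, had a peak in all 6 replicates. Thus 73 of 73 RP genes that are not paralogs of this kind had a BRG1 promoter peak, as defined above, in every replicate. At *Rpl41* its summit lay 1516 to 1535 bp downstream of the TSS used for positions later. The pooled BRG1 summit of *Rpl41* fell in an exon of the neighbouring gene *Zc3h10*. The 30 bases around the RefSeq start of the 3 unoccupied genes, from 25 before to 5 from the start on, are shown on the strand of the gene to set them beside the occupied promoters described later. Capitals mark the run of at least 4 pyrimidines that holds the start or lies nearest to it.
*Rpl3l* (GRCm38.p6, chr17:24727801-24727830, plus strand): tctggcagctgagtgttctagCTCTgtcat
*Rpl10l* (chr12:66284397-66284426, minus strand): gtaacagaaatttggcctccaTTTTgcggc
*Rpl39l* (chr16:10170203-10170232, plus strand): ctctccctagctcccaggCCTTTCCggatt

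A further 6 RP genes lacked a PBRM1 peak in a single replicate. *Rpl32*, *Rps15*, *Rpl8* and *Rps4x* had none in replicate 3, *Rpl36* had none in replicate 2, and *Rpl10* had none in replicate 1. *Rpl8* and *Rpl36* were weakly enriched where a peak was called. *Rpl8* had a PBRM1 fold enrichment of 4.86 and 4.93 in replicates 1 and 2, and a BRG1 fold enrichment of 5.55, 4.08 and 5.05. *Rpl36* had 5.05 and 3.63 for PBRM1 in replicates 1 and 3, and 4.61, 3.62 and 5.27 for BRG1. The others were higher. *Rpl32* had 8.93 and 6.28 in PBRM1 replicates 1 and 2, *Rps15* had 6.19 and 5.01, and *Rps4x* had 5.57 and 6.96. *Rpl10* had 6.54 and 6.20 in PBRM1 replicates 2 and 3, at the 71.2nd and 78.0th percentile of those lists, and 7.73, 7.07 and 7.81 for BRG1. A missing peak means a value under the calling threshold of that library, and absence of binding cannot be read from it. *Rps4x* and *Rpl10* are both X-linked, as are *Rpl36a* and *Rpl39*. The 4 X-linked RP genes had a median percentile of 58.3 ± 13.5 (SD, n = 3) for PBRM1 and 71.1 ± 6.45 for BRG1, and the 75 autosomal ones 73.7 ± 3.01 and 82.4 ± 1.09. Over all protein-coding genes the same medians were 61.2 and 76.5 on the X chromosome and 72.5 and 80.4 on the autosomes.

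The percentile used here ranks a peak by fold enrichment among all peaks of its own list, because fold enrichments from separate libraries have no common scale. Occupied RP promoters ranked close to other occupied promoters. The median percentile of RP promoter peaks was 70.7, 76.5 and 71.7 in the PBRM1 replicates, beside 71.6, 73.9 and 71.1 for all protein-coding genes with a peak. In the BRG1 replicates it was 83.1, 80.1 and 81.1, beside 80.9, 79.8 and 80.1. The mean of the replicate medians was 73.0 ± 3.08 (SD, n = 3) against 72.2 ± 1.50 for PBRM1 and 81.4 ± 1.51 against 80.3 ± 0.604 for BRG1. The RP median was above that of all genes in 2 of 3 PBRM1 and in 3 of 3 BRG1 replicates, and these differences were not tested. Median fold enrichment at RP promoters was 7.44, 7.04 and 5.77 for PBRM1 and 8.47, 8.20 and 8.41 for BRG1. RP peaks were 548 to 605 bp wide at the median for PBRM1 and 630 to 718.5 bp for BRG1, where the medians over all promoter peaks were 521 to 591 bp and 573 to 637 bp.

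**Figure D1:**
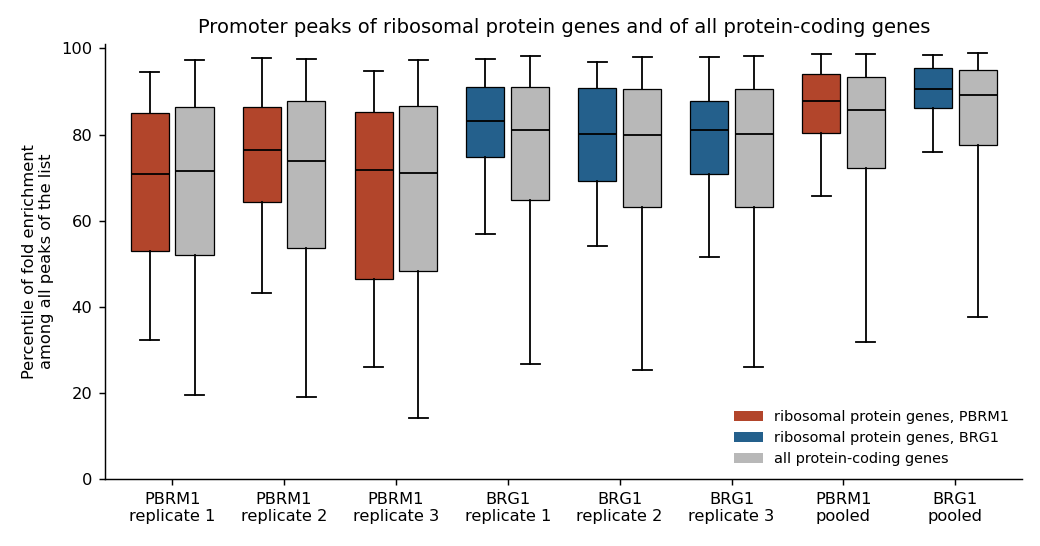
Percentile of fold enrichment (y axis, 0 to 100, among all peaks of a list) of promoter peaks in each of the 8 lists (x axis), with RP genes in red (PBRM1) or blue (BRG1) and all protein-coding genes with a promoter peak in grey. Boxes span the quartiles with the median as a line and whiskers the 5th to 95th percentiles. The RP medians sit at 70.7 to 76.5 in the PBRM1 replicates and 80.1 to 83.1 in the BRG1 replicates, next to the medians of all genes.

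*Rps29* had the most enriched RP promoter. Among the 70 genes with a peak in all 6 replicates, the mean percentile over the 6 lists ran from 42.6 to 99.4 (*Rps29*). *Rps29*, a zinc-binding protein of the small subunit head (chr12:69157722-69159186, minus strand), led in every list. Its fold enrichment was 14.1, 13.6 and 12.9 in the PBRM1 replicates and 14.7, 15.5 and 16.1 in the BRG1 replicates. These values lay between the 98.8th and the 99.8th percentile of their lists, and the summits fell 51 to 100 bp upstream of the TSS with both antibodies. *Rpl37*, *Rpl14*, *Rpl21* and *Rpl22l1* followed, each with a mean percentile of 93.0 to 94.8. *Rpl37* had 11.4, 9.30 and 7.66 for PBRM1 and 11.7, 13.3 and 13.2 for BRG1. *Rpl21* had 11.4, 12.1 and 9.48 for PBRM1 and 10.4, 10.8 and 10.3 for BRG1, so that its fold enrichments overlapped. Its percentiles among the genes tested later did not, at 89.1 to 96.7 for PBRM1 and 68.0 to 75.7 for BRG1. The rank difference of *Rpl21* did not pass that test (adjusted p = 0.0806 by limma).

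*Rpl19*, *Rps26*, *Rps28* and *Rps15a* were among the lowest ranks. *Rpl19*, often used as a reference gene for expression, had a fold enrichment of 4.79, 4.52 and 4.27 for PBRM1 and 5.76, 5.43 and 4.92 for BRG1. All 6 *Rpl19* values were below all 6 values of *Rps29*, but both genes were named for their ranks in these same lists. *Rps28* reached 4.18, 6.14 and 4.01 for PBRM1 and 8.82, 6.96 and 7.25 for BRG1, without overlap of the fold enrichments. Its percentiles among the genes tested later did overlap, at 1.69 to 30.2 for PBRM1 and 23.3 to 50.1 for BRG1. The rank difference of *Rps28* did not pass that test (adjusted p = 0.201 by limma). RefSeq promoters of mm10 (GRCm38.p6) were at hand for 7 of the genes named at both ends, and the 30 bases around their starts are shown from the most to the least enriched, with capitals as before.
*Rpl37* (chr15:5116588-5116617, plus strand): cgccggaagtagTTTCCTgggcggaagctt
*Rpl14* (chr9:120571492-120571521, plus strand): gcgcacggcagggcgggCCCTCTCTCTTCT
*Rpl22l1* (chr3:28805483-28805512, plus strand): aaaagcgtgcgtgcggcgcaagcccgTTCT
*Rps15a* (chr7:118116143-118116172, minus strand): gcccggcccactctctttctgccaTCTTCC
*Rps28* (chr17:33824558-33824587, minus strand): aggattcctgggtaccgcgtgcggTCTCgc
*Rps26* (chr10:128626502-128626531, minus strand): atataagcgggtcgggcaagccgccggatc
*Rpl19* (chr11:98026899-98026928, plus strand): gagtggggcttgggCTCTCCCCTTCgcaga
Long pyrimidine runs at or just before the start stood at both ends of this order, as *Rpl14* and *Rpl19* show, and *Rps26* held no run of 4 in this window. The RefSeq start is not always the representative TSS from which positions are given later. It lay 241 bp downstream of that TSS at *Rps26* and at -891 bp from it at *Rps15a*, so that these windows lie away from the start used for the offsets.

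**Figure D2:**
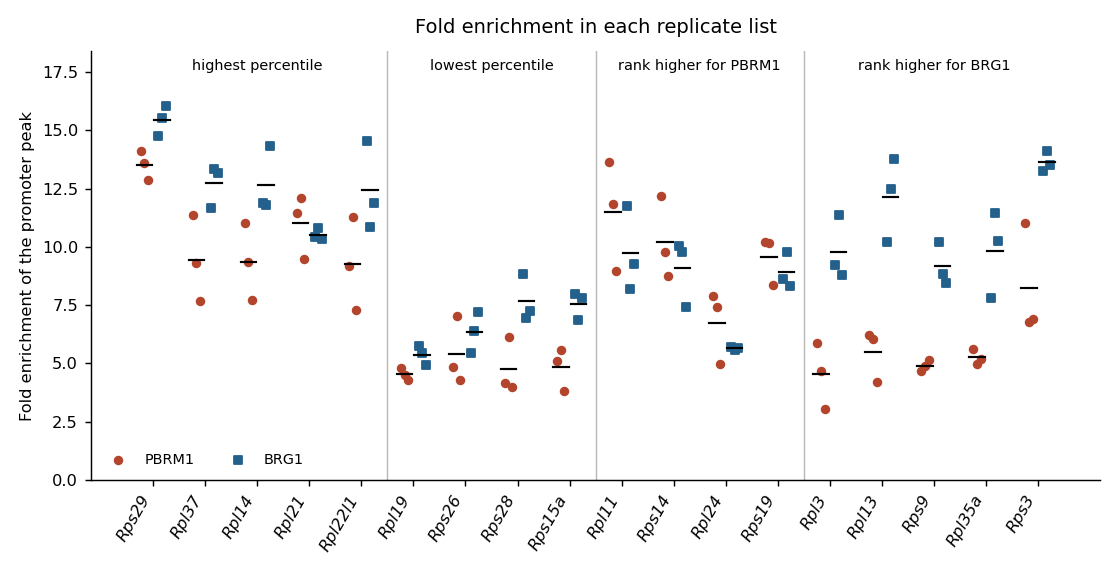
Fold enrichment of the promoter peak (y axis, from 0) of 18 RP genes (x axis) in the 3 PBRM1 replicates (red circles) and the 3 BRG1 replicates (blue squares), with the mean of each antibody as a black line. The panels hold genes from the 5 of highest and of lowest mean percentile and from the 5 with the largest rank difference in each direction. *Rps29* sits at 12.9 to 16.1 and *Rpl19* at 4.27 to 5.76.

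Promoter sequence was compared over 60 of 79 RP genes that matched the RefSeq promoter table (250 bases before to 50 after the start) and over 16521 matched genes. A C followed by 4 pyrimidines exactly at the RefSeq start was found in 11 RP promoters (18.3%) and in 2.19% of all promoters. When a start within 10 bases was allowed, a reading added after the data were seen, the shares were 55.0% and 31.3%. The ETS/GABP string CCGGAAG, searched on both strands, was present in 23 RP promoters (38.3%, against 12.5%). The YY1 string AAGATGG was present in 9 (15%, against 6.49%) and the SP1 string GGGCGG in 35 (58.3%, against 48.6%). The E-box CACGTG was present in 5 (8.33%, against 8.03%), and TATAAA also in 5 (8.33%, against 12.9%). RP promoters had a median G+C content of 56.8% (all promoters, 57.0%) and a median of 21 CpG (all promoters, 14). These strings can overlap by chance with other sites and a match is not a measured site. RP promoters with CCGGAAG had a median percentile of 89.2 for PBRM1 and 89.2 for BRG1 in the pooled lists, and those without it 86.0 and 91.4. With the pyrimidine run within 10 bases of the start the medians were 85.1 and 89.7, and without it 90.8 and 91.4. With GGGCGG the medians were 88.3 and 93.4, and without it 87.4 and 88.7. The 9 promoters with AAGATGG had medians of 80.6 and 90.0 and the 48 others with a peak had 89.5 and 90.8, the widest gap for PBRM1 next to that of the 5 with TATAAA (79.9 and 89.2, against 88.9 and 90.8). These medians were not tested.

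RP genes were also split by subunit, snoRNA content and divergent neighbours. Large-subunit genes had a median percentile of 73.3 ± 2.80 (SD, n = 3) for PBRM1 and 80.9 for BRG1, and small-subunit genes 72.6 ± 5.11 and 82.5. A total of 28 RP genes host a snoRNA, the guide RNAs of rRNA modification, and 11 share a divergent promoter with a protein-coding gene whose TSS lies within 1000 bp on the other strand. Hosts had medians of 74.1 and 83.5 and the other RP genes 72.0 and 80.7. Divergent promoters had medians of 73.8 and 83.7 and the rest 72.8 and 80.8. The PBRM1 differences were smaller than the SD between replicate medians. The BRG1 replicate medians of the subunits overlapped, at 78.7 to 83.0 and 81.2 to 84.0. They ran from 81.6 to 85.8 for hosts and from 80.1 to 81.1 for the other RP genes, without overlap, and from 81.4 to 85.6 for divergent promoters and 79.6 to 82.0 for the rest, with overlap. These differences were not tested.

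Other lists of the translation machinery were placed on the same scale. The 7 cytosolic RP genes outside the symbol rule all had a peak in all 6 replicates, with medians of 74.6 ± 8.17 for PBRM1 and 81.6 for BRG1. *Rplp1*, of the acidic stalk, had 8.22, 7.85 and 6.65 for PBRM1 and 13.3, 9.75 and 13.0 for BRG1. The 13 translation factor and related genes with 5′ TOP mRNAs, such as *Eef1a1* and *Eif4b*, had medians of 86.2 ± 0.327 and 86.8. The 16 ribosome biogenesis genes had medians of 83.1 ± 0.318 and 90.5. They include *Npm1*, nucleophosmin, and *Fbl*, the rRNA methyltransferase fibrillarin. The 78 mitochondrial RP genes, which encode a different ribosome, were occupied in all 6 replicates at 75 promoters and had medians of 80.5 ± 2.84 and 88.1. For both antibodies the range of replicate medians of these 3 lists lay above that of the cytosolic RP genes. Of 6 upstream regulators (*Myc*, *Mtor*, *Larp1*, *Gabpa*, *Yy1* and *Sp1*) all had a peak in all 6 replicates, with medians of 68.5 and 74.9. The differences between lists were not tested, since the lists were chosen with results of these data known.

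**Figure D3:**
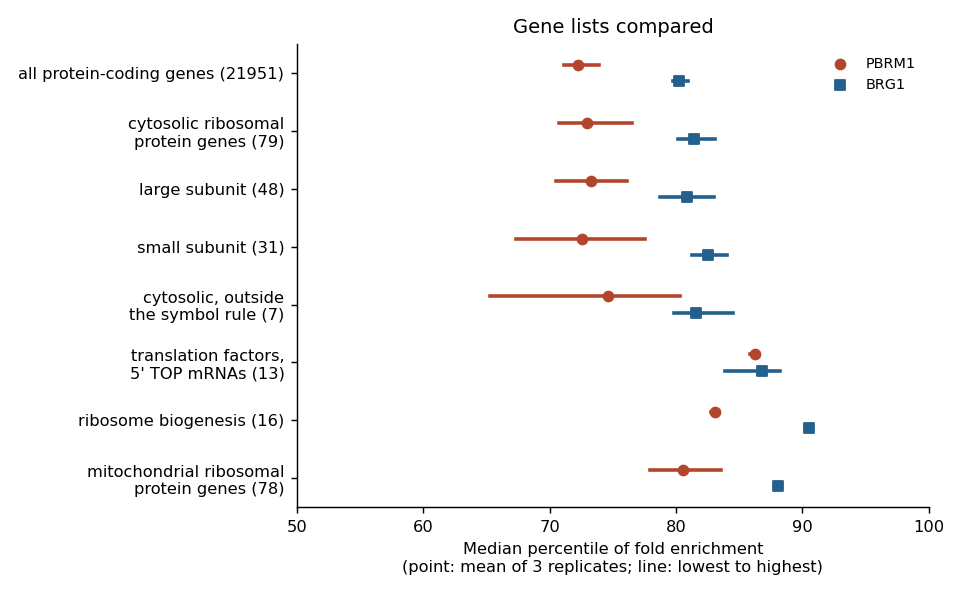
Median percentile of promoter peaks (x axis, shown from 50 to 100) of 8 gene lists (y axis, number of genes in brackets), with PBRM1 as red circles and BRG1 as blue squares. Points are the mean of the 3 replicate medians and lines run from the lowest to the highest replicate. Cytosolic RP genes sit at 73.0 and 81.4, near all protein-coding genes, and mitochondrial RP genes at 80.5 and 88.1.

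Processed RP pseudogenes carry copies of the coding sequence without the parent promoter, and few were occupied. Of 283 annotated RP pseudogenes, 9, 9 and 10 had a peak within 2000 bp of their start in the PBRM1 replicates and 22, 11 and 15 in the BRG1 replicates. In the pooled lists 24 (8.48%) and 41 had one, and 8 and 9 of these peaks also lay within 2000 bp of the TSS of a protein-coding gene. The strongest BRG1 peak away from such a TSS was near *Rpl31-ps7* (chr6:47788182-47788723), with a pooled fold enrichment of 10.2 for BRG1 and 4.22 for PBRM1. The authors removed reads that map to several places, so sequence that an RP gene shares with its pseudogenes can be under-counted in all lists, and the size of this was not tested.

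The question of whether PBRM1 and BRG1 rank RP promoters differently was tested over the 11388 protein-coding genes with a promoter peak in all 6 replicates. Fold enrichments were ranked over these genes within each list, turned into normal scores and compared with limma, with Benjamini-Hochberg adjustment over all genes. The ranks of most RP genes did not pass the test. PBRM1 ranked higher at 3 of 70 RP genes (4.29%, against 1.69% of all genes tested) and BRG1 at 2 of 70 (2.86%, against 2.29% of all), counts too small to set the family apart. At an unadjusted p under 0.05 the counts were 22 of 70 RP genes (31.4%, against 21.3% of all genes). The median difference was 0.06 normal scores over RP genes and 0.02 over all genes. Across the 70 RP genes, mean percentiles of PBRM1 and BRG1 had a Spearman rho of 0.582, and across all 11388 genes of 0.789. The points of these correlations are genes, which share libraries and local background and are not replicates.

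BRG1 ranked higher than PBRM1 at *Rpl13* and *Rpl3*. *Rpl13*, a large-subunit gene on chromosome 8 (chr8:123102350-123105244, plus strand), had a PBRM1 fold enrichment of 6.22, 6.04 and 4.19 and a BRG1 fold enrichment of 10.2, 12.5 and 13.8. The groups did not overlap. Its mean percentile among the genes compared was 20.9 for PBRM1 and 84.3 for BRG1, a difference of -1.95 ± 0.352 (SE) normal scores (adjusted p = 0.0114 by limma). *Rpl3*, a core protein near the peptidyl transferase center (chr15:80077791-80091868, minus strand), had 5.88, 4.66 and 3.06 for PBRM1 and 9.21, 11.4 and 8.79 for BRG1. Its mean percentiles were 8.40 and 61.2, a difference of -1.96 ± 0.403 (adjusted p = 0.0163). The PBRM1 peak of replicate 2 assigned to *Rpl3* had its summit at -7811 bp from the main TSS, near another annotated start, and the peak at the main TSS had a fold enrichment of 4.56 there. *Rps9*, *Rpl35a* and *Rps3* came next in this direction, with adjusted p of 0.0623, 0.0700 and 0.0849. Their groups did not overlap either. Such separation was common. Among all peaks of a list, every BRG1 percentile lay above every PBRM1 percentile at 26 of 70 RP genes (37.1%, against 32.5% of all genes tested). The reverse held at 7 of 70 RP genes, and no share over all genes is given for it. Pooled fold enrichment was higher for BRG1 at 61 of 76 RP genes. Its median over all protein-coding genes with a peak was also higher for BRG1, at 8.75 against 6.91. This count therefore does not set RP genes apart. *Rps9* had 4.67, 4.87 and 5.16 for PBRM1 and 10.2, 8.84 and 8.44 for BRG1. *Rpl13* lost its call when BRG1 replicate 3 was left out (adjusted p = 0.0638), and *Rpl3* when PBRM1 replicate 2 or any BRG1 replicate was left out (0.0503 to 0.0738).

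PBRM1 ranked higher than BRG1 at *Rpl11*, *Rpl24* and *Rps14*. *Rpl11*, a large-subunit protein that also binds MDM2 (chr4:136028265-136053428, minus strand), had 13.6, 11.9 and 8.97 for PBRM1 and 11.8, 8.18 and 9.25 for BRG1. The fold enrichments overlapped between the antibodies and the percentiles among the genes compared did not, at 93.5 to 97.0 for PBRM1 and 40.3 to 84.8 for BRG1 (difference 1.43 ± 0.358, adjusted p = 0.0350 by limma). *Rpl24*, which forms a bridge between the subunits, had 7.89, 7.41 and 4.96 against 5.71, 5.58 and 5.65, with percentiles of 28.4 to 54.4 against 8.69 to 9.10 (1.19 ± 0.322, adjusted p = 0.0459). *Rps14*, a small-subunit gene whose reduced dose causes anemia, had 12.2, 9.77 and 8.74 against 10.1, 9.79 and 7.41, with percentiles of 85.9 to 92.9 against 28.1 to 67.1 (1.25 ± 0.347, adjusted p = 0.0497). *Rps19* followed with an adjusted p of 0.0652. All 3 PBRM1-higher calls were lost when the peak of the nearest summit was used (adjusted p of 0.0688 to 0.0822). None of the 3 passed without PBRM1 replicate 1, PBRM1 replicate 2, BRG1 replicate 2 or BRG1 replicate 3, and 1 passed without BRG1 replicate 1. Without BRG1 replicate 3 no RP gene passed in either direction, and over all genes 4 and 25 calls were left of 192 and 261.

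The 30 bases around the start are given for the called genes with a RefSeq promoter that can be shown, with capitals as before.
*Rpl13* (chr8:123102325-123102354, plus strand): gtgacgtcacttccctttcgcctgaTTTTg
*Rpl11* (chr4:136053389-136053418, minus strand): agcccgCCTCCTgacccataaggccacggg
*Rpl24* (chr16:55966250-55966279, plus strand): tgctgtaggaagaaagctgttgctaggaaa
The *Rpl11* and *Rpl24* windows held no pyrimidine run at the RefSeq start, and *Rpl13* had one of 4 bases there.

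**Figure D4:**
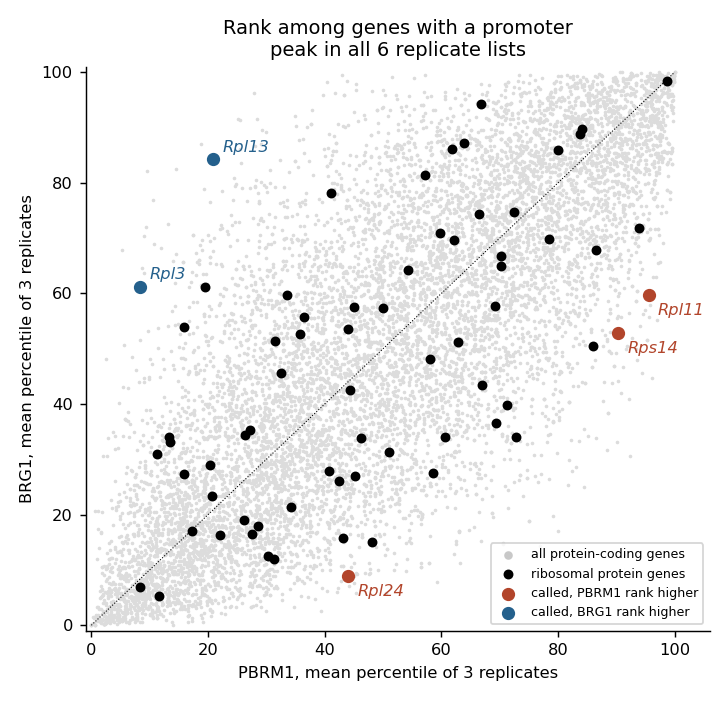
Mean percentile of fold enrichment over 3 PBRM1 replicates (x axis) and 3 BRG1 replicates (y axis) among the 11388 protein-coding genes with a promoter peak in all 6 lists (grey), with 70 RP genes in black and those past an adjusted p of 0.05 in color. The dotted line marks equal percentiles. *Rpl13* and *Rpl3* lie above it, and *Rpl11*, *Rps14* and *Rpl24* below it.

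The position of the peak was the second point of comparison. The offset is the distance of the summit from a representative TSS along the direction of transcription, negative upstream. At RP promoters the median offset was 91, 62 and -17 bp in the PBRM1 replicates and -30.5, -25 and -4 bp in the BRG1 replicates. Over all genes it was 61, 61 and 9 bp for PBRM1 and -12, -9 and -16 bp for BRG1. PBRM1 replicate 3 thus stood apart here too. Without it the mean of the PBRM1 medians at RP genes was 76.5 bp, and with it 45.3 ± 55.9 (SD, n = 3) bp. Measured from the nearest TSS of any transcript, the means of the medians at RP genes were 0 bp for PBRM1 and -23.2 bp for BRG1. That choice takes the start closest to each summit and so shortens offsets by construction. From the RefSeq start, added after the data were seen, the means were 48.5 and -41.2 bp. From the most upstream TSS they were 120 and 27.3 bp. The size of the offset, and for BRG1 also its side of the TSS, thus depended on the TSS chosen. PBRM1 summits lay 75 to 300 bp downstream of the TSS at 41.3%, 37.3% and 26.4% of occupied RP promoters, and BRG1 summits at 19.7%, 19.7% and 21.1%. BRG1 summits were within 75 bp of the TSS at 39.5% of RP promoters in each replicate, and PBRM1 summits at 20.0%, 17.3% and 30.6%. All genes showed the same order, with 27.5% and 17% in the downstream window and 19.4% and 30.7% within 75 bp for PBRM1 and BRG1 (means of 3 replicates). The fragments also differed in size, with 177 to 188 bp in the PBRM1 and 149 to 154 bp in the BRG1 libraries, and the part of this in the positions was not tested. In the pooled lists the summits of both antibodies were within 50 bp of each other at 36 of 76 RP genes and over 150 bp apart at 24. No share over all genes is given for these counts, so they do not set RP genes apart. In the replicates the median absolute difference in mean offset was 76.3 bp over 70 RP genes and 74 bp over 11388 genes.

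The limma test of the offset over the same 11388 genes called 4 of 70 RP genes with the PBRM1 summit further downstream (5.71%, against 3.19% of all genes tested) and 0 with the BRG1 summit further downstream (1.95% of all). At an unadjusted p under 0.05 it gave 15 of 70 RP genes (21.4%, against 13.8% of all genes). Of the genes called, *Rps25*, *Rpl27* and *Rps12* are described, named because they passed and so chosen after their values were seen. *Rps25*, a small-subunit gene needed for initiation on several internal ribosome entry sites, has its TSS on chromosome 9 at 44407697 on the plus strand, 97 bp from that of the divergent gene *Trappc4*. Its PBRM1 summits were at 87, 97 and 91 bp and its BRG1 summits at -274, -273 and -261 bp. The difference was 361 ± 12.3 (SE) bp (adjusted p = 0.00033 by limma). When the replicate number was added to the fit as a block, no RP gene was called. The adjusted p by limma was then 0.0691 at *Rps25*, 0.177 at *Rpl27* and 0.303 at *Rps12*. The pooled PBRM1 summit fell in an exon of *Rps25*, and the pooled BRG1 summit fell where an exon of *Trappc4* overlaps one of an upstream *Rps25* transcript.

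*Rpl27* (chr11:101442298-101445529, plus strand) had PBRM1 summits at 253, 212 and 212 bp and BRG1 summits at 3, 37 and -2 bp, a difference of 213 ± 20.4 bp (adjusted p = 0.00884 by limma). *Rps12* had PBRM1 summits at -14, -2 and -17 bp and BRG1 summits at -91, -91 and -98 bp, a difference of 82.3 ± 12.3 bp (adjusted p = 0.0331), and it did not pass when the nearest summit was used (adjusted p = 0.0503). It also failed when any single library other than PBRM1 replicate 3 was left out (adjusted p of 0.0603 to 0.125). At none of these genes did the antibodies overlap. Leaving out PBRM1 replicate 3 raised the RP calls to 10 and 2, and those over all genes to 735 and 380 of 12294. The start of *Rps25*, in the window shown for the other genes, reads as follows, with capitals on the nearest pyrimidine run.
*Rps25* (chr9:44407689-44407718, plus strand): gggcttcctttttttccgacaTCTTagcga
*Rpl27* (chr11:101442220-101442249, plus strand): cggaaccggaacgctctgTTCCTgtctgct

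At other RP promoters the antibodies met at the same place. *Rps29* summits lay at -71, -100 and -51 bp for PBRM1 and -76, -53 and -57 bp for BRG1. *Rpl37* summits lay at -173, -170 and -168 bp and at -168, -160 and -168 bp. The difference at *Rpl37* was -5 ± 11.7 bp. *Rps14*, which differed in rank, did not separate in position, with summits at -167, -179 and -188 bp for PBRM1 and -176, -184 and -166 bp for BRG1.

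**Figure D5:**
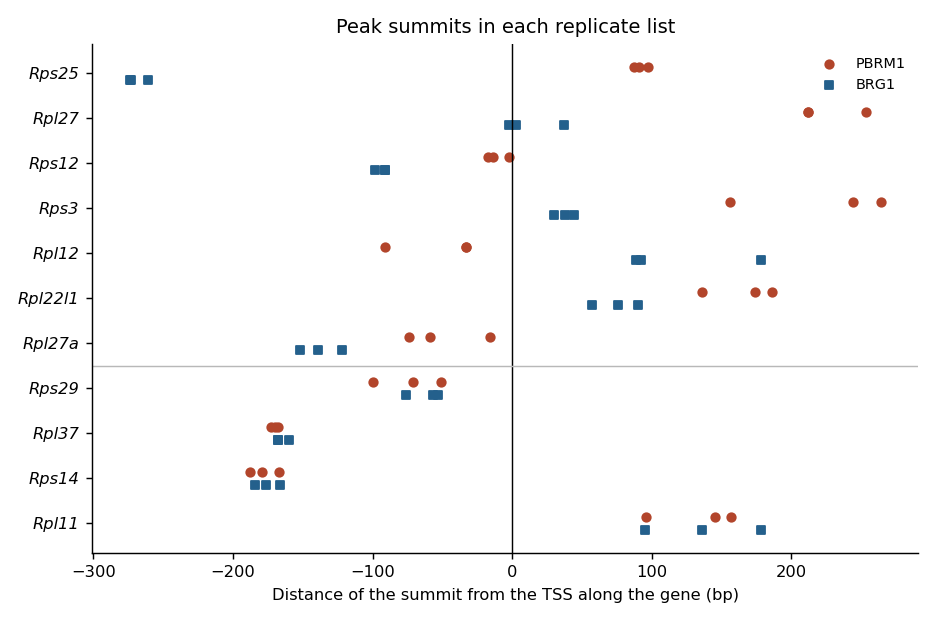
Distance of the peak summit from the TSS along the gene (x axis, bp, TSS at 0) in the 3 PBRM1 replicates (red circles) and the 3 BRG1 replicates (blue squares) for 11 RP genes (y axis). Above the grey line are 7 of the 8 genes of lowest adjusted p, of which the first 3 passed, and below it *Rps29*, *Rpl37*, *Rps14* and *Rpl11*. At *Rps25* PBRM1 summits sit at 87 to 97 bp and BRG1 summits at -274 to -261 bp.

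The rule that takes any annotated TSS assigned a peak over 700 bp from the representative TSS to 8 RP genes in at least 1 list. *Rps18* took a peak at 4262 to 4533 bp in its replicates, and in the window of its representative TSS it had a fold enrichment of 5.97, 3.25 and 3.64 for PBRM1 and 3.10, 4.14 and 4.68 for BRG1. *Rpl18* took one near -2740 bp, and had 5.51, 4.87 and 3.43 for PBRM1 and 3.79, 5.26 and 3.60 for BRG1 at its own start. *Rpl41* took one at 1516 to 1575 bp, which was also its peak in the narrower window. The pooled summits of these 3 genes lay in neighbouring genes, in an exon of *B3galt4* for *Rps18*, an intron of *Sphk2* for *Rpl18* and an exon of *Zc3h10* for *Rpl41*. *Rpl4* took its strongest pooled peaks, 15.6 for PBRM1 and 13.5 for BRG1, at 6027 and 6069 bp in *Snapc5*, and had 7.66 and 7.52 at its start. *Rps24*, *Rps15a*, *Rpl7* and *Rpl3* were so affected in 1 to 4 lists. The *Rps15a* summits, at -1091 to -622 bp in the replicates, lay on either side of its RefSeq start. The largest offset differences of the family, -2582 ± 2419 bp at *Rpl3*, -1088 ± 1176 bp at *Rps24* and 396 ± 228 bp at *Rpl4*, did not pass the test (adjusted p of 0.630, 0.665 and 0.488 by limma). At *Rpl3* and *Rps24* a far peak entered the replicate values, whereas the *Rpl4* summits lay at 202, 92 and -576 bp for PBRM1 and -535, -422 and -512 bp for BRG1.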

How the data were processed

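ChIC-Seq peak lists of D4 mUSCs were used, 3 replicates and 1 pooled list for each of PBRM1 and BRG1. The authors trimmed the reads, aligned them to mm10 with Bowtie2, removed multimapping and duplicate reads, and called peaks with MACS 2.2.7.1. Per the file headers MACS compared each site with the surrounding 10000 bp, used no control and kept peaks under a q-value of 0.05, so a list cannot separate antibody signal from open chromatin. From the deposited columns, fold enrichment was ranked within lists, and the −log10 q-value and the pileup signal served as alternatives. Genes and TSSs came from GENCODE vM21, and RefSeq gave promoter sequences. The representative TSS was the basic, best-supported start shared by most transcripts within 50 bp, a tie rule set after offsets were seen. Ranks and offsets were compared with limma 3.58.1 (R 4.3.3), antibody as the only term, over genes with a peak in all 6 replicates. On simulated scores the rank step recovered 50 of 100 genes shifted by 1.5 and 90 of 100 shifted by 3, with 3 false calls over the 11388 genes tested. The simulated noise was independent between genes and between libraries, without a library that stands apart. These counts therefore do not give the error rate in the measured lists. Counts and positions were computed in Python 3.11.15. The genes named were the 5 highest and 5 lowest by mean percentile, the 5 with the largest rank difference in each direction, those lacking a peak, the 3 largest offset differences, the paralogs and the genes outside the rule, a few of which are not reported here. The members, lists and rules were chosen with earlier results of these data known. Alternatives were other windows, thresholds, ranking values, TSSs and peak choices, a replicate block and each replicate left out.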

Additional observations from a re-analysis of the deposited data

How the results depend on the processing

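Presence of peaks at RP promoters at the authors' threshold and the share of PBRM1 peaks shared with BRG1 were stable, and the calls between antibodies were not. Fold enrichments of genes that took a far peak depended on the TSS window. At *Rpl4* the pooled values were 15.6 and 13.5 for PBRM1 and BRG1, and 7.66 and 7.52 at its start. Counts of occupied RP genes stayed within 1.5 times with windows of 500 and 1000 bp, the representative TSS, the summit inside the window and each replicate left out (69 to 74 genes for PBRM1 and for both antibodies, 76 for BRG1). A −log10 q of at least 5 left 58 genes for PBRM1 and for both and 76 for BRG1, and a fold enrichment of at least 5 left 45, 45 and 72. The mean median percentile of 73.0 (PBRM1) and 81.4 (BRG1) became 51.3 and 52.6 when ranked only among promoter peaks, which by construction centres all promoters near 50, and 83.9 and 84.0 for BRG1 when ranked by −log10 q and by pileup. It was 71.2 to 74.1 and 80.6 to 82.1 with a replicate left out. The mean median offset was 45.3 and -19.8 bp. It became 120 and 27.3 bp from the most upstream TSS, and 0 and -23.2 bp from the nearest TSS of any transcript. From the RefSeq start, a choice added after the data were seen, it was 48.5 and -41.2 bp. It was 22.5 to 76.5 and -27.8 to -14.5 bp with a replicate left out.

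For the rank test, 3 and 2 RP genes and 192 and 261 of all genes were called for PBRM1 and BRG1. Ranking by −log10 q left 91 and 116 of all genes, and by pileup 163 for BRG1. The nearest summit left 0 RP genes for PBRM1, with 74 and 98 of all genes. Genes with a peak in at least 2 lists of each antibody gave 0 RP genes and 103 of all genes for PBRM1. Leaving out a replicate gave 0 to 2 and 0 to 4 RP genes and 4 to 222 and 25 to 310 of all genes. Of the 13 alternatives for each called gene, the call was lost in 1 for *Rpl13*, 4 for *Rpl3*, 6 for *Rpl11*, 7 for *Rpl24* and 11 for *Rps14*, with no change of direction. Leaving out a replicate changes both the number of samples and the libraries used, and the cause of the losses was not tested.

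The labels do not say whether same-numbered replicates of the antibodies belong together. Deviations of same-numbered replicates had correlations of -0.0205, -0.000153 and 0.00313, and no replicate correlated best with its own number. Differently numbered replicates had correlations of -0.0137 to 0.0146. Values this small cannot show whether same-numbered libraries shared a pool of mice. The replicate block kept 3 and 2 RP genes in the rank test. In the offset test the replicate block took the RP calls from 4 to 0 and those over all genes from 363 and 222 to 31 and 36. Leaving out a replicate gave 3 to 10 and 0 to 2 RP genes and 227 to 735 and 169 to 380 of all genes. *Rps25* and *Rpl27* lost the call under the block alone of 9 alternatives, and *Rps12* in 8. The uncalled offset differences of *Rpl3*, *Rpl4* and *Rps24* reversed to 27.7, -29.3 and 154 bp with the nearest summit, with the same values from the RefSeq start, and those of *Rpl3* and *Rps24* to 26.3 and 180 bp without PBRM1 replicate 2. With a replicate left out they ran from -3902 to 26.3 bp and from -1732 to 180 bp.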
